A study of Mus musculus with 12 samples.

Results

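Ventricles of mice that carried the activator dCas9-VPR but had received no guide RNA were compared with ventricles of wild-type mice. The libraries were chosen by their labels as the 3 TG_saline and the 3 WT_saline libraries, 6 of the 12 in the series. Genes whose normalized count averaged 10 or more in these 6 libraries were tested, which kept 13005 of the 24390 gene symbols in the table. All mice were C57BL/6 and 8 weeks of age, and total RNA of the cardiac ventricles was sequenced. WT_saline hearts had the wild-type genotype and an injection of saline. TG_saline hearts carried the Myh6-dCas9VPR transgene and had also received saline. WT_AAV and TG_AAV hearts had the same respective genotypes and an AAV9 vector that the labels call TRISPR and name with Mef2d. They enter as a second pair of groups, and their libraries also share in the limma estimate of spread. Where the transgene sits in the genome, its copy number and whether the line came from a single founder were not found in the labels.

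dCas9 is a Cas9 protein that has lost its cutting activity and binds DNA where a guide RNA leads it. VPR is a fusion of activation domains of viral origin and of the NF-kB subunit RelA, and it recruits the transcription machinery to the site where dCas9 is bound. The Myh6 promoter, which drives the alpha myosin heavy chain, is active in heart muscle cells, so the activator is made in these cells and not in the fibroblasts, vessels or immune cells of the same tissue. Without a guide, dCas9-VPR has no programmed address, and a comparison with wild-type hearts gives the background on which the guided activation of Mef2d is measured.

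The 6 libraries held from 10233281 to 11838776 reads assigned to genes. A normalized count is such a read count divided by a size factor of its library. Between libraries of a group the chi-square per degree of freedom ran from 8.34 to 25.5, above counting noise, so none was a copy of another. The labels leave unstated whether each sample is its own animal. Both groups held libraries with high Xist, a transcript of female cells, and libraries with high Ddx3y, a gene of the Y chromosome, so each came from at least 2 animals. Xist was high in WT_saline 1, WT_saline 3 and TG_saline 1, and Ddx3y was high in WT_saline 2, TG_saline 2 and TG_saline 3. Where some samples of a group are repeats of an animal, a p-value mixes technical spread with the spread between animals.

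Other transcripts separated single libraries rather than groups. Myl7, the atrial myosin light chain, had normalized counts of 728 in TG_saline 1 and 258 in TG_saline 3, and of 8.88 or less in the other 4 libraries. Its atrial partner Myl4 stood at 737 and 283 in these same libraries, and at 20.0 or less in the others. Sln, the atrial calcium pump inhibitor sarcolipin, stood at 166 and 52.4 against 2.29 or less. Myl7, Myl4 and Sln were thus high in 2 TG_saline libraries and in no WT_saline library. Nppa, also on the list of atrial markers, did not follow that pattern. It stood at 713, 1060 and 1717 in WT_saline and at 1924, 1791 and 1575 in TG_saline. Myh2, a myosin of fast skeletal muscle, stood at 1087 and 1272 in WT_saline 1 and WT_saline 3 and at 1072 in TG_saline 2, and at 2.90 or less in the remaining 3. Transcripts of heart muscle were abundant, with Myh6 taking from 3.08% to 4.13% of the reads and Ttn, the giant sarcomere protein, from 10.2% to 11.8%. Along the first principal component of the 6 libraries, which held 33.2% of the variance, WT_saline 3 stood at one end.

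**Figure D1:**
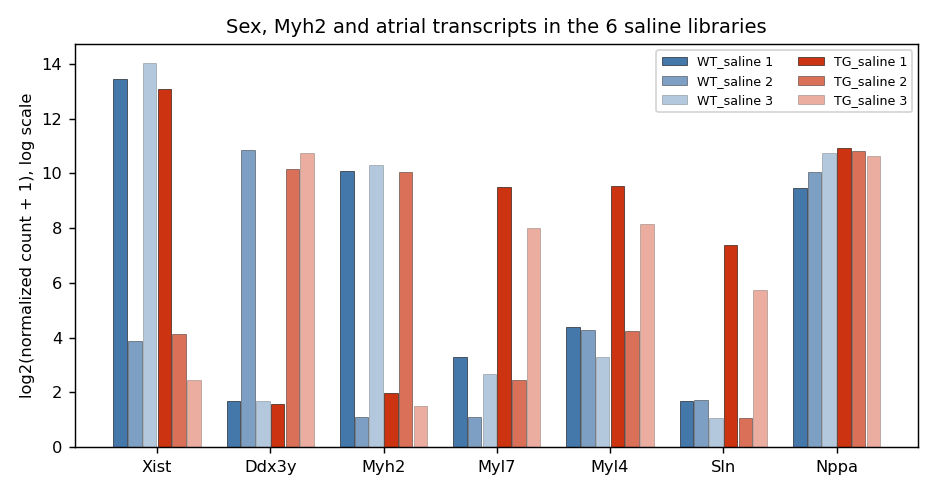
Level of 7 transcripts in each of the 6 libraries, as log2(normalized count + 1) on a log scale, with 1 bar per library. Xist and Ddx3y separate the sexes within both groups, and Myh2 is high in WT_saline 1, WT_saline 3 and TG_saline 2. Myl7, Myl4 and Sln are high only in TG_saline 1 and TG_saline 3 among these 6 libraries, a pattern that Nppa does not follow.

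Mef2d, the transcription factor that the series set out to activate, was not raised by the activator without a guide. Its normalized count was 999, 877 and 1178 in the WT_saline libraries. In the TG_saline libraries it was 833, 844 and 839. Each TG_saline value lay below each WT_saline value, and the groups did not overlap. The TG_saline mean of 839 ± 5.45 (SD, n = 3) was 0.824 times the WT_saline mean of 1018 ± 151 (SD, n = 3). On the log2 scale the difference was -0.27 (SE 0.11) and did not pass the threshold (limma adjusted p = 0.342). The exact two-sided permutation p was 0.1, the smallest that 3 against 3 libraries can give, and 0.3 on reads scaled to the library total. Among the 9 tested neighbours of Mef2d on its chromosome, 0 passed the threshold in either direction (limma), 0 had an unadjusted p under 0.05, and edgeR and DESeq2 called 0 as well. Their median log2 change was 0.06.

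A pair of endogenous genes correspond to elements of the construct itself. Myh6, whose promoter drives the transgene, had normalized counts of 444342, 361394 and 491569 in WT_saline and of 374934, 388654 and 357604 in TG_saline. These ranges overlapped, and the log2 difference of -0.20 (SE 0.20) did not pass (limma adjusted p = 0.766, exact two-sided permutation p = 0.3). Rela, the mouse gene for the NF-kB subunit that lends VPR an activation domain, stood at 356, 299 and 321 in WT_saline and at 382, 375 and 400 in TG_saline. The groups did not overlap, yet the log2 difference of 0.25 (SE 0.11) did not pass either (limma adjusted p = 0.400, exact two-sided permutation p = 0.1). The transcript of dCas9-VPR itself was not analysed here.

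Across all genes, 11 were called higher in TG_saline (0.0846% of those tested) and 2 lower (0.0154%; limma, two-sided, adjusted p under 0.05). The genes that rose were the Wnt receptors Fzd9 and Fzd3, the signaling genes Rab40b, Prkcz and Limk2, the metabolic and mitochondrial genes Alad, Abat and Mcu, and the genes of lysosomes and sorting Hyal1, Sorl1 and Abca5. Those that fell were Ces1d and Pfkfb1. The groups did not overlap in 8.69% of genes with TG_saline higher and in 7.85% with TG_saline lower, so a gap between 3 and 3 values was common in this table. Unadjusted p-values under 0.05 were found for 1458 genes (11.2%). The edgeR test on recovered reads called 35 genes (0.269%), 24 higher (0.185%) and 11 lower (0.0846%), and DESeq2 called 221 (1.70%), 111 higher (0.854%) and 110 lower (0.846%). All 13 genes were called by both of them.

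The calls depended on single libraries and on the samples fitted. With only the 6 compared libraries in the fit, limma called Alad, Ces1d and Rab40b, and the other 10 did not pass. Without TG_saline 2, limma called 0 genes, with 1191 at an unadjusted p under 0.05, and without TG_saline 3 or without WT_saline 3 the called genes were Alad and Rab40b alone. Without WT_saline 1 there were 8 calls, without WT_saline 2 there were 40, and without TG_saline 1 there were 36. Alad and Rab40b were called in every alternative but the omission of TG_saline 2, where their adjusted p was 0.0617 and 0.0698.

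Fzd9 and Fzd3 encode Frizzled receptors, which receive Wnt ligands at the cell surface. Fzd9 had normalized counts of 23.3, 20.6 and 15.2 in WT_saline. In TG_saline it had 61.9, 67.4 and 83.1. It rose by a log2 value of 1.80 (SE 0.27, limma adjusted p = 0.0347), from a low level at which every TG_saline library exceeded every wild-type library. Fzd3 had 144, 134 and 117 in WT_saline and 247, 271 and 369 in TG_saline, again without overlap. It rose by 1.14 (SE 0.15, limma adjusted p = 0.0181). Of 9 tested Frizzled genes these were the ones that passed. Fzd6 and Fzd8 did not overlap between groups in the other direction, with log2 changes of -0.09 and -0.31. Fzd4, at 952 ± 122 in WT_saline and 858 ± 39.8 in TG_saline (SD, n = 3 each), had a log2 change of -0.14.

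Rab40b, Prkcz and Limk2 encode regulators of protein turnover, polarity and the cytoskeleton. Rab40b is a Rab-like GTPase that works with a cullin ubiquitin ligase. Its normalized counts of 26.6, 30.9 and 28.2 in WT_saline stood against 103, 101 and 88.6 in TG_saline. The means were 28.6 ± 2.16 and 97.5 ± 7.88 (SD, n = 3 each), so the gap was many times the spread within these groups. Rab40b rose by 1.73 (SE 0.20, limma adjusted p = 0.00689). The WT_AAV libraries, also of wild-type hearts, spread more widely, at 52.9, 55.8 and 31.1 (SD 13.5, n = 3). Prkcz, the atypical protein kinase C zeta, went from 18.9, 19.5 and 17.4 to 43.5, 51.9 and 54.2. It rose by 1.37 (SE 0.23, limma adjusted p = 0.0421), while its close relative Prkci had a log2 change of 0.11. Among the partners of this kinase in the Par polarity complex, Pard6b had a log2 change of 0.78 with groups that did not overlap, at 37.8 ± 4.11 and 65.3 ± 0.351 (SD, n = 3 each), and was called by DESeq2 but not by limma or edgeR, and Pard3 had one of 0.00. Limk2, a kinase that inactivates the actin severing protein cofilin, stood at 381, 432 and 371 against 541, 651 and 573. It rose by 0.57 (SE 0.10, limma adjusted p = 0.0461). Its paralogue Limk1 had a log2 change of -0.01, and the cofilin genes Cfl1 and Cfl2 had 0.14 and 0.04. Ssh3, of the slingshot phosphatases that oppose LIM kinases, had a log2 change of 0.73 without overlap, which did not pass by limma (adjusted p = 0.0548) and was called by edgeR and DESeq2.

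Alad, Abat and Mcu act in metabolism and mitochondria. Alad encodes the enzyme of the second step of haem synthesis. It had 595, 600 and 479 in WT_saline and 1036, 1126 and 1087 in TG_saline, a ratio of means of 1.94. Alad rose by 0.96 (SE 0.10) and had the smallest p of all genes (limma adjusted p = 0.00490). Of 9 haem synthesis genes, Alad was the one whose groups did not overlap, beside 16.5% of all tested genes. The rate-limiting Alas1 had a log2 change of -0.17, and Fech, which inserts the iron, had 0.12. Abat, the mitochondrial transaminase that breaks down GABA, stood at 296, 322 and 269 against 477, 882 and 831. It rose by 1.25 (SE 0.20, limma adjusted p = 0.0375), with the TG_saline 1 value well under the other TG_saline values. Aldh5a1, the next enzyme of GABA breakdown, had a log2 change of 0.05. Aldh9a1, another gene of GABA metabolism, lay lower without overlap, beside 7.85% of all tested genes. It stood at 578 ± 136 and 423 ± 38.8 (SD, n = 3 each, log2 -0.43). Mcu forms the pore through which calcium enters mitochondria. It stood at 298, 267 and 247 against 399, 405 and 451 and rose by 0.63 (SE 0.09, limma adjusted p = 0.0347). Smdt1, a small subunit of the same uniporter complex, had a log2 change of -0.01.

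Hyal1, Sorl1 and Abca5 encode proteins of lysosomes, endosomes and lipid transport. Hyal1, a lysosomal hyaluronidase, had 89.9, 93.9 and 102 in WT_saline and 168, 159 and 143 in TG_saline. It rose by 0.71 (SE 0.12, limma adjusted p = 0.0455). Sorl1, a sorting receptor of the endosome and Golgi, went from 305, 248 and 309 to 409, 494 and 508. It rose by 0.71 (SE 0.11, limma adjusted p = 0.0347). Abca5, an ABC transporter of lipids, went from 298, 282 and 270 to 379, 442 and 425. It rose by 0.55 (SE 0.09, limma adjusted p = 0.0375). In each of these genes the lowest TG_saline value exceeded the highest WT_saline value.

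Ces1d and Pfkfb1 were the genes that fell. Ces1d is a carboxylesterase that hydrolyzes stored triglyceride. Its normalized counts were 1625, 1713 and 2186 in WT_saline and 822, 834 and 625 in TG_saline. It fell by 1.27 (SE 0.20, limma adjusted p = 0.0372) to 0.413 times its wild-type level. Ces1d belongs to a cluster of similar genes whose reads a counter could split, so its values are uncertain to that extent, which was not tested. Ces1e, the other tested gene of the cluster, stood at 14.0 ± 5.93 and 10.7 ± 2.52 (SD, n = 3 each, log2 -0.31), with overlapping groups. Pfkfb1, a bifunctional enzyme that sets the level of the glycolysis activator fructose 2,6-bisphosphate, stood at 202, 301 and 325 against 116, 75.1 and 93.1. It fell by 1.53 (SE 0.25, limma adjusted p = 0.0421). The more abundant Pfkfb2 of heart muscle had a log2 change of -0.25, with overlapping groups at 3141 ± 648 and 2639 ± 562 (SD, n = 3 each).

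**Figure D2:**
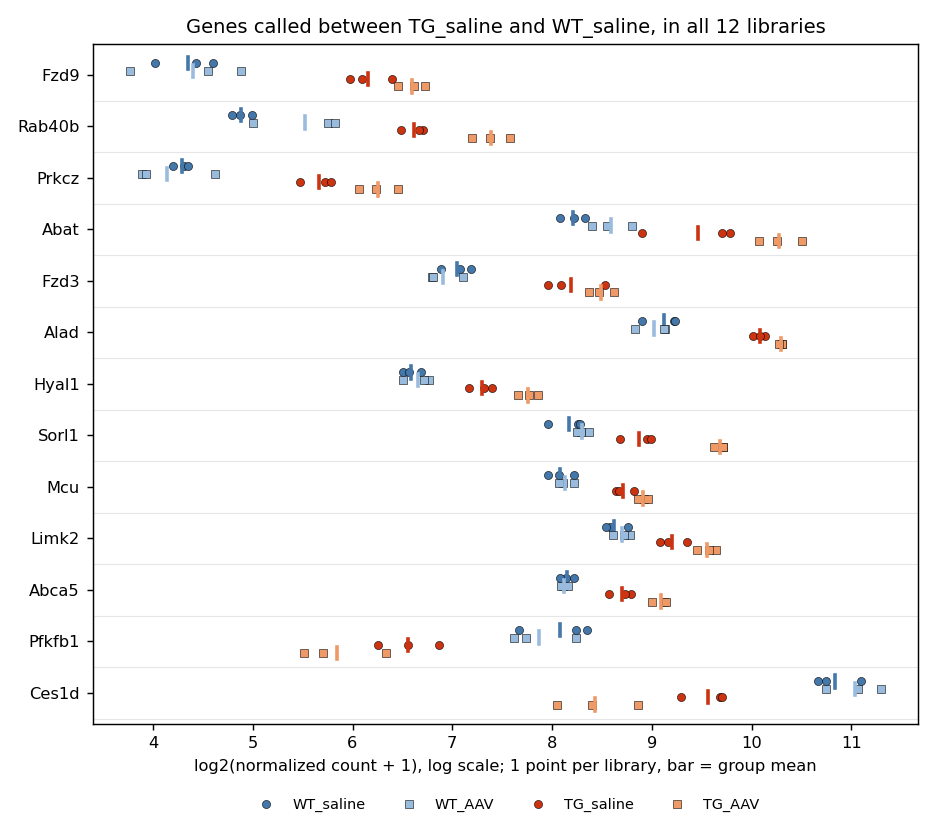
Level of the 13 called genes in all 12 libraries, as log2(normalized count + 1) on a log scale, with 1 point per library and a bar at each group mean. In every gene the TG_saline points (red circles) lie apart from the WT_saline points (blue circles), and the TG_AAV mean (orange bar) lies farther from the wild-type means than the TG_saline mean does.

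The 4 genes named next by p in the lower direction missed the threshold, all at a limma adjusted p of 0.0540. Further genes, in both directions, shared that limma adjusted p. The 4 genes were called lower by edgeR (adjusted p = 0.0496 for each) and by DESeq2. Atad3a, a mitochondrial membrane ATPase, had normalized counts of 660, 569 and 623 in WT_saline and of 434, 441 and 372 in TG_saline, with a log2 change of -0.57. Trim7, a ubiquitin ligase, had 336, 368 and 344 against 257, 217 and 236, with -0.56. Agtpbp1, an enzyme that trims glutamate from tubulin tails, had 2765, 2442 and 3476 against 1951, 1880 and 1704, with -0.64. Magi2, a scaffold of cell junctions, had 393, 311 and 379 against 256, 223 and 219, with -0.63. The groups did not overlap in any of the 4.

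The atrial transcripts Myl7, Myl4 and Sln were high in a subset of TG_saline libraries, and the calls were set beside them. With a term for Myl7 in the fit, an alternative chosen after seeing the data, 3 genes were called, namely Alad, Limk2 and Rab40b. With a term for libraries with Myh2 reads, also added after seeing the data, Alad and Rab40b were called. The log2 changes themselves moved little. With the Myl7 term Alad stood at 1.01, Fzd3 at 1.10, Mcu at 0.61, Ces1d at -1.36 and Pfkfb1 at -1.61. Over all the alternatives tried, each of the 13 genes kept its direction. With a term for high Xist, 11 of the 13 were called, and Limk2 and Pfkfb1 were not.

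Promoter sequence was read from RefSeq (GRCm38.p6), a different build from the mm9 that the submitters' processing notes name, as the 250 bases before the first start listed for a gene. The table lists 2 starts for Alad and Sorl1, 3 for Prkcz and Limk2, 4 for Pfkfb1 and 1 for the others, and the matches and GC content below hold for the first only. An entry was found for 10 of the 13 called genes. The sequences shown are those of the 3 called genes with an entry and the smallest p, together with that of Pfkfb1 as a gene that fell, so that the letters at genes that moved without a guide can be seen. Capitals mark matches, on either strand, to the Sp1 box GGGCGG, the E-box CACGTG, the CCAAT box CCAAT, the TATA box TATAAA, the MEF2 site CTANNNNTAG or the D-box TTATGNAA. The regions are chr4:62520064-62520313, minus strand for Alad, chr11:121388252-121388501, minus strand for Rab40b, chr5:135251048-135251297, minus strand for Fzd9 and chrX:150587195-150587444, plus strand for Pfkfb1, each printed 5′ to 3′ on the strand of its gene.
Alad: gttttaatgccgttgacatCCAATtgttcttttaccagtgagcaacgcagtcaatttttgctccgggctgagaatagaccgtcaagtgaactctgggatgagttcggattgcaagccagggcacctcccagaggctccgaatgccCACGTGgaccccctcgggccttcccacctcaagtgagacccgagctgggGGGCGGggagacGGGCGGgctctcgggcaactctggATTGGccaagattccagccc
Rab40b: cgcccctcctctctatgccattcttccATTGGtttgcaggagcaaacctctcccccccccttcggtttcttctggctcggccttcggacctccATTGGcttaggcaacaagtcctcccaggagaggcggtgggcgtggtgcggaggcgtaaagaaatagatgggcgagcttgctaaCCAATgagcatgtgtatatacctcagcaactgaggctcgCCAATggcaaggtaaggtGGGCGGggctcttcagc
Fzd9: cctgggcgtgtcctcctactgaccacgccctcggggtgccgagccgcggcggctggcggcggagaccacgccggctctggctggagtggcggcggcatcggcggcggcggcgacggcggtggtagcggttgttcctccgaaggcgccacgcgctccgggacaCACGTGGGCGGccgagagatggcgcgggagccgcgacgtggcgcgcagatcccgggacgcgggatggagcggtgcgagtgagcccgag
Pfkfb1: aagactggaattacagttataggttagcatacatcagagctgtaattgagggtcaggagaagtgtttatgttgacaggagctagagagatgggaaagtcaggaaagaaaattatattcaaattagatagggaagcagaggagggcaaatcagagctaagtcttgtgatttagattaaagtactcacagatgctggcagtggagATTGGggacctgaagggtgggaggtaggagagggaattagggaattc

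The GC-rich Sp1 box was present in 8 of the 10 promoters, against 59.5% of the 9814 promoters of tested genes and 32.9% of all 27018 promoters in the table. The E-box occurred in Fzd9, Alad and Sorl1, 3 of 10, against 8.55% of the promoters of tested genes, and in Fzd9 it shares a base with the Sp1 box. The CCAAT box occurred in 6 of 10 against 36.0%. Rab40b holds several CCAAT boxes. The TATA box, the MEF2 site and the D-box occurred in 0 of 10, against 6.39%, 2.85% and 1.78%. The GC content was 76.4% in Fzd9, 58.4% in Alad, 57.6% in Rab40b and 42.4% in Pfkfb1, beside a median of 60% over the promoters of tested genes. These matches describe the letters of the window and are not evidence of binding.

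The same genes were then read in the hearts that had received the vector. TG_AAV against WT_AAV shares no library with TG_saline against WT_saline, although TG_AAV hearts also carry the raised Mef2d. Both comparisons come from a single limma fit, with a shared estimate of spread for each gene. The calls in vector hearts are therefore not independent of those in saline hearts. All 13 genes moved in the same direction there, all 13 were called (limma), and each change was larger than in saline hearts. By comparison, 2416 of the 13005 genes (18.6%) were called in TG_AAV against WT_AAV, 1355 higher (10.4%) and 1061 lower (8.16%), and 68.4% of all tested genes had the same sign in both comparisons. Of the 8893 tested genes with the same sign, 6417 also had the larger change in vector hearts, so a larger change there was common.

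Ces1d, with 2514, 2148 and 1715 in WT_AAV and 463, 264 and 336 in TG_AAV, fell by 2.60 in the vector hearts (SE 0.20, limma adjusted p = 5.71e-06). Sorl1, with 312, 303 and 330 against 840, 787 and 841, rose by 1.38 there (SE 0.11, limma adjusted p = 6.46e-06). Alad, with 559, 556 and 453 against 1264, 1266 and 1242, rose by 1.27 (SE 0.10, limma adjusted p = 1.03e-05). Fzd3 rose by 1.59 and Fzd9 by 2.20 in the vector hearts, and Prkcz by 2.11. The smallest of these changes were those of Mcu at 0.79 and Limk2 at 0.86. Trim7, one of the genes just short of the threshold, had a log2 change of -0.06 in the vector hearts, with overlapping groups at 303 ± 25.6 and 289 ± 16.2 (SD, n = 3 each), while Atad3a, Agtpbp1 and Magi2 had -0.75, -0.83 and -0.91.

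Whether the transgene effect differed between vector and saline hearts was tested as an interaction. It was called for 88 of the 13005 genes (0.677%; limma), and for 0 of the 13 called genes. The nearest were Ces1d (difference -1.33, SE 0.28, limma adjusted p = 0.0514) and Sorl1 (0.68, SE 0.15, limma adjusted p = 0.0684), and Rab40b had 0.12 (SE 0.29, limma adjusted p = 0.913). At an adjusted p above the threshold a difference in size is not shown, nor is equality. Mef2d, by contrast, differed between the pairs by 1.20 (SE 0.15, limma adjusted p = 0.00161).

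**Figure D3:**
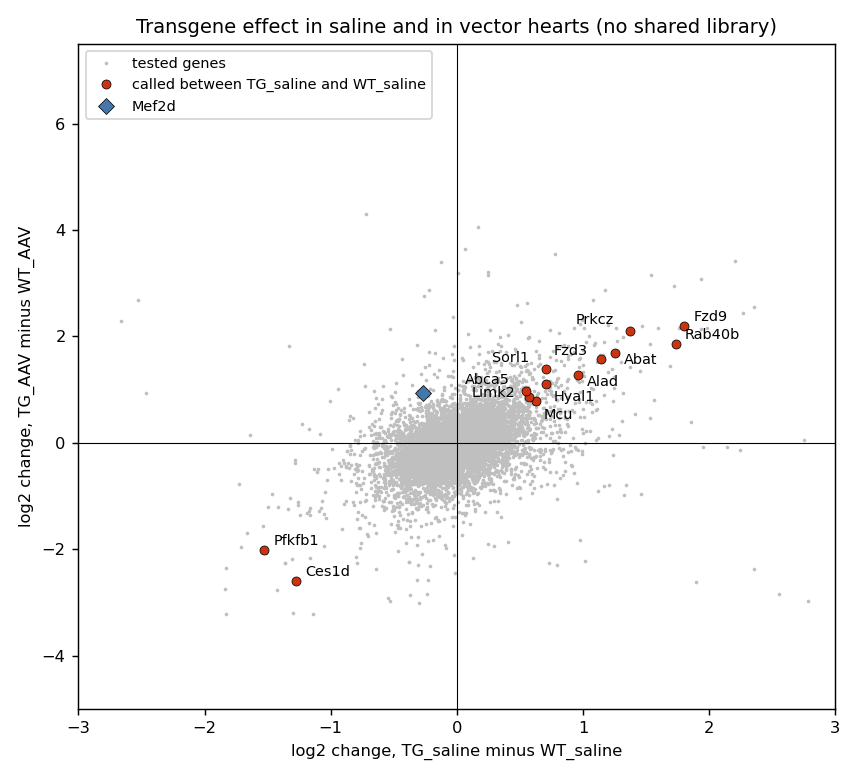
Log2 change of every tested gene in saline hearts (x axis, TG_saline minus WT_saline) against vector hearts (y axis, TG_AAV minus WT_AAV), with no library in common. The 13 called genes lie in the upper right and lower left, each farther from 0 on the y axis than on the x axis, and Mef2d lies at -0.27 and 0.93; 7 tested genes lie outside the drawn axes.

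Beyond single calls, gene lists were described by their counts and medians. Over all 13005 tested genes the median log2 change was -0.01, with 6349 positive and 6656 negative, beside which the counts of sign below stand. Of all list members Pfkfb1 was the only one called by limma in the comparison of TG_saline with WT_saline, so the members below are given as values. Counts of members with an unadjusted p under 0.05 stand beside the 11.2% of all tested genes, those without overlap beside 8.69% higher and 7.85% lower, and DESeq2 calls beside 0.854% higher and 0.846% lower.

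The cardiac ion channel list had the lowest median among the lists of heart muscle function. Of 38 tested channel genes 34 had a negative log2 change, 13 had an unadjusted p under 0.05, and 0 were called by limma or edgeR, while DESeq2 called 4 lower, beside 0.846% of all genes. The median was -0.27, and between -0.40 and -0.22 without any 1 of the 6 libraries. Groups did not overlap in 6 genes with TG_saline lower and in 2 with TG_saline higher, beside 7.85% and 8.69% of all genes. Kcnj2, the inward rectifier that sets the resting potential, had normalized counts of 1747, 2089 and 1621 in WT_saline and of 1111, 1198 and 966 in TG_saline. Its log2 change of -0.73 (SE 0.14) missed the threshold (limma adjusted p = 0.0552), and in the vector hearts it was -0.11. Kcnv2, a silent potassium channel subunit, stood at 202, 270 and 534 against 146, 61.9 and 69.6, a log2 change of -1.83 (SE 0.37, limma adjusted p = 0.0591). Kcnip2, a subunit of the transient outward channel, went from 2616, 2380 and 2245 to 1664, 2012 and 1562 (log2 -0.47, limma adjusted p = 0.127). In each of these 3 genes every TG_saline value lay below every WT_saline value.

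Calcium handling was mixed, with a median of 0.03 over 23 tested genes that turned to -0.11 without WT_saline 3. The 6 genes with TG_saline lower and no overlap included Hrc, a calcium binding protein of the sarcoplasmic reticulum, at 11190 ± 101 and 8878 ± 783 (SD, n = 3 each, log2 -0.34). Ryr2, the calcium release channel, stood at 77842 ± 3204 and 60193 ± 4422 (SD, n = 3 each, log2 -0.37), and Jph2, which holds the junction between membranes, at 8217 ± 706 and 6616 ± 686 (SD, n = 3 each, log2 -0.31). Calm3, a calmodulin gene, lay in the other direction at 1538 ± 140 and 2054 ± 214 (SD, n = 3 each, log2 0.42). Their limma adjusted p ran from 0.114 to 0.206. DESeq2 called 1 calcium handling gene higher and 3 lower, and limma and edgeR called 0 of the list, with 5 at an unadjusted limma p under 0.05. Sln, an atrial transcript, is a member of this list and, among the 6 saline libraries, had its high values in TG_saline 1 and TG_saline 3.

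Among 24 tested genes of glucose use, Pfkfb1 fell and the median was -0.05. Limma and edgeR called Pfkfb1 alone, 4 had an unadjusted limma p under 0.05, and DESeq2 called Pfkfb1 and Hk2 lower and Slc2a1 higher. Hk2, the hexokinase of insulin responsive muscle, stood at 7738, 7724 and 7713 in WT_saline and at 5996, 6343 and 4648 in TG_saline, a log2 change of -0.46 (SE 0.10, limma adjusted p = 0.0990). Slc2a1, a glucose transporter, stood at 241, 192 and 231 against 315, 297 and 299, a log2 change of 0.46 (SE 0.10, limma adjusted p = 0.0854). Both were without overlap. Of 32 fatty acid genes 27 had a negative change, the median was -0.17, 8 had an unadjusted p under 0.05 and limma and edgeR called 0, while DESeq2 called 2 lower. Ucp3, a mitochondrial carrier linked to fat oxidation, went from 405, 693 and 927 to 322, 152 and 327 (log2 -1.34, limma adjusted p = 0.113). Lpl, the lipoprotein lipase that frees fatty acids from lipoproteins, went from 65451, 80352 and 73710 to 57867, 53291 and 50698 (log2 -0.44, limma adjusted p = 0.192). Dgat2, which makes triglyceride, had a log2 change of -0.45 and Slc27a1, a fatty acid transporter, one of -0.51. The groups of these 4 genes did not overlap.

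**Figure D4:**
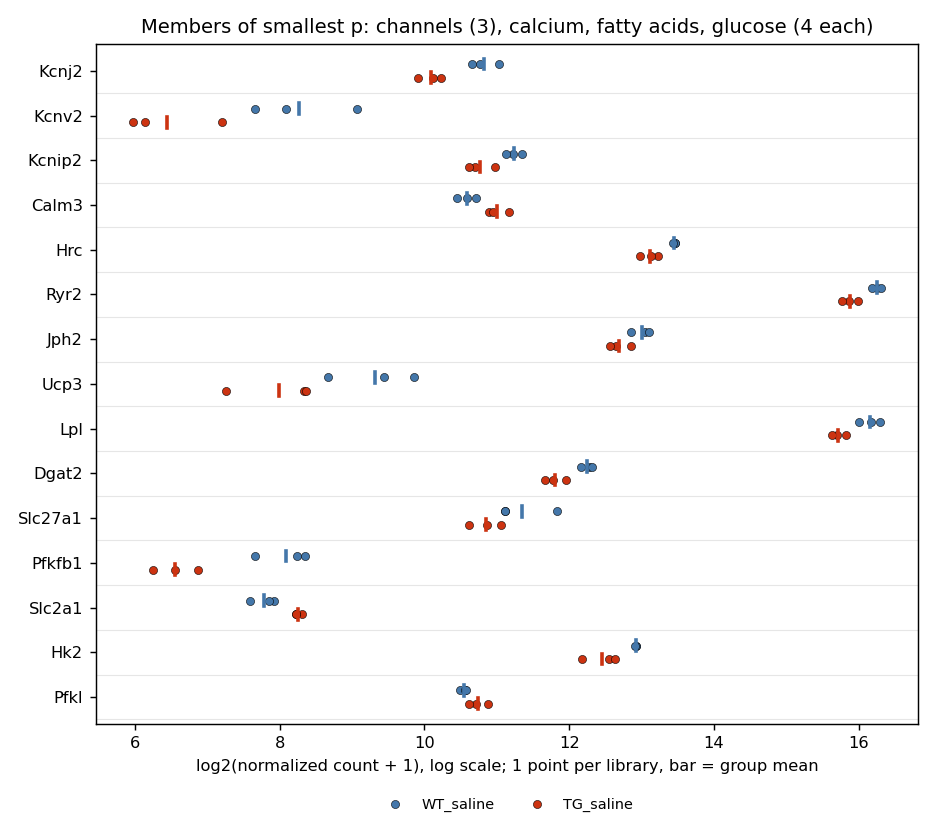
Level of the 3 genes of smallest p among cardiac ion channels and the 4 of smallest p in each of 3 other lists (calcium handling, fatty acids, glucose), as log2(normalized count + 1) on a log scale, with 1 point per library and a bar at each group mean. TG_saline (red) lies below WT_saline (blue) in most of the 15 genes and above it in Calm3, Slc2a1 and Pfkl; of the 15, Pfkfb1 is the one called by limma.

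The genes of mitochondrial respiration stayed close to 0. Of 40 tested TCA cycle and respiratory chain genes 35 had a negative change, but their median was only -0.07, it was 0.06 with quantile normalization, 0 were called by limma, edgeR or DESeq2, and 0 had an unadjusted p under 0.05. The coactivators Ppargc1a and Ppargc1b, which drive mitochondrial genes, had log2 changes of -0.58 and -0.51 with overlapping groups (limma adjusted p = 0.214 and 0.237). For 26 genes of the sarcomere and the Myh6 promoter the median was -0.10, and 0.03 with quantile normalization. Of these, Tpm1 stood at 79320 ± 7020 and 61619 ± 6205 (SD, n = 3 each, log2 -0.37), Myoz2, which tethers calcineurin to the Z-disc, at 8719 ± 415 and 6951 ± 837 (log2 -0.33), and Tpm2 at 168 ± 32.4 and 276 ± 71.7 (log2 0.70). Limma and edgeR called 0 of them, with 4 at an unadjusted limma p under 0.05, and DESeq2 called 1 higher. The ribosomal protein genes, at a median of -0.12 over 26 genes, showed 6 without overlap and lower, beside 7.85% of all genes, and 0 called by limma, edgeR or DESeq2, with 3 at an unadjusted limma p under 0.05.

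Genes of cardiac stress, which include those of the fetal program, had a median of 0.14 over 21 tested genes, with 14 positive and 7 negative. Limma and edgeR called 0 of them, 6 had an unadjusted limma p under 0.05, and DESeq2 called 1 higher and 1 lower. Tnfrsf12a, a receptor that rises in stressed muscle, stood at 182, 131 and 97.7 in WT_saline and at 186, 236 and 250 in TG_saline (log2 0.74, limma adjusted p = 0.162). Thbs1, a matrix protein of injury, stood at 61.1, 113 and 69.5 against 188, 114 and 284 (log2 1.21, limma adjusted p = 0.135), and in the vector hearts its log2 change was -0.79. Fhl2, a LIM protein of the sarcomere, went from 20364, 19571 and 16862 to 14136, 14812 and 11363 (log2 -0.50, limma adjusted p = 0.149). Acta1, skeletal alpha actin, had overlapping groups at 1346 ± 1003 and 2562 ± 1065 (SD, n = 3 each).

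All 8 tested members of the MEF2 family and its partners had a negative change, with a median of -0.24. Hdac4, a histone deacetylase that binds and represses MEF2 factors, stood at 741, 802 and 1098 in WT_saline and at 500, 646 and 511 in TG_saline. Its log2 change of -0.66 (SE 0.15) did not pass (limma adjusted p = 0.110), was called by DESeq2, and was -0.59 in the vector hearts. Of the 8 genes 2 had an unadjusted limma p under 0.05, Hdac4 and Mef2d, while limma and edgeR called 0 and DESeq2 called 1 lower.

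Among clock genes, with a median of -0.13 over 23, the output regulators Tef and Hlf stood at 4349 ± 135 and 3480 ± 312 (SD, n = 3 each, log2 -0.32) and at 1020 ± 94.2 and 815 ± 90.1 (SD, n = 3 each, log2 -0.33). Cell cycle genes had a median of -0.01. Their cyclins Ccnd3 and Ccnd2 lay higher without overlap, at 363, 344 and 360 against 498, 528 and 460 for Ccnd3 (log2 0.47, SE 0.10, limma adjusted p = 0.0591) and at 2788, 2319 and 2074 against 3525, 3899 and 3262 for Ccnd2 (log2 0.58, SE 0.13, limma adjusted p = 0.101). Cenpf, a centromere protein, lay lower at 1285, 1760 and 1388 against 688, 504 and 843 (log2 -1.14, SE 0.29, limma adjusted p = 0.130). Limma and edgeR called 0 genes of either list, with 3 in each at an unadjusted limma p under 0.05, while DESeq2 called 1 clock gene lower and 2 cell cycle genes higher.

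Stress responses inside the cell gave small values. Of 28 genes of the unfolded protein response and ATF4 program 20 were positive, with a median of 0.07, and 8 were higher without overlap while 0 were lower, beside 8.69% and 7.85% of all genes. Xbp1, the transcription factor that a splicing event activates in this response, stood at 600, 603 and 640 in WT_saline and at 792, 738 and 758 in TG_saline (log2 0.31, SE 0.08, limma adjusted p = 0.123). Manf, a protein of the endoplasmic reticulum, stood at 193 ± 21.8 and 245 ± 23.2 (SD, n = 3 each, log2 0.34), and Sesn2, which restrains growth signaling under stress, at 47.1 ± 4.40 and 90.2 ± 30.7 (SD, n = 3 each, log2 0.87). Limma and edgeR called 0 of the list, 6 had an unadjusted limma p under 0.05, and DESeq2 called 2 higher. Targets of NF-kB, the pathway that supplies an activation domain to VPR, had a median of 0.04 over 27 tested genes and 0 calls by limma, edgeR or DESeq2, with 3 at an unadjusted limma p under 0.05. Csf1 lay at 1091 ± 132 and 792 ± 65.1 (SD, n = 3 each, log2 -0.46) and Relb had a log2 change of 0.47 with overlapping groups. The 35 interferon response genes had a median of 0.01, 0 without overlap, 0 with an unadjusted p under 0.05 and 0 calls by limma, edgeR or DESeq2.

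The median log2 changes of 8 further lists stood between -0.18 and 0.04, beside -0.01 for all tested genes. They were -0.18 for 20 genes of adrenergic signaling, -0.14 for 24 cardiac transcription factors, -0.11 for 19 metabolic regulators, -0.07 for 19 genes of antigen presentation and -0.04 for 21 immediate early genes. They were 0.03 for 21 genes of the p53 response, 0.04 for 24 heat shock genes and -0.02 for 24 apoptosis genes. Pde4d, a phosphodiesterase that ends cAMP signals, stood at 1089 ± 21.8 and 925 ± 57.9 (SD, n = 3 each, log2 -0.24), and Hey2, a ventricular repressor of the Notch pathway, at 106 ± 19.1 and 67.4 ± 5.81 (SD, n = 3 each, log2 -0.63). Phlda3, a p53 target, stood at 114 ± 17.2 and 153 ± 6.24 (SD, n = 3 each, log2 0.43). Limma and edgeR called 0 members of these 8 lists, with 0 to 4 in each at an unadjusted limma p under 0.05, and DESeq2 called 1, Sesn2 of the p53 list, higher.

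General transcription factors and coactivators, the machinery that VPR recruits, had a median of 0.00 over 28 tested genes. Polr2a, the large subunit of RNA polymerase II, stood at 1126, 934 and 1104 in WT_saline and at 1308, 1345 and 1912 in TG_saline (log2 0.51, SE 0.15, limma adjusted p = 0.162). Gtf2b stood at 114 ± 8.29 and 144 ± 9.41 (SD, n = 3 each, log2 0.33). Limma, edgeR and DESeq2 called 0 of the list, and 2 had an unadjusted limma p under 0.05.

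**Figure D5:**
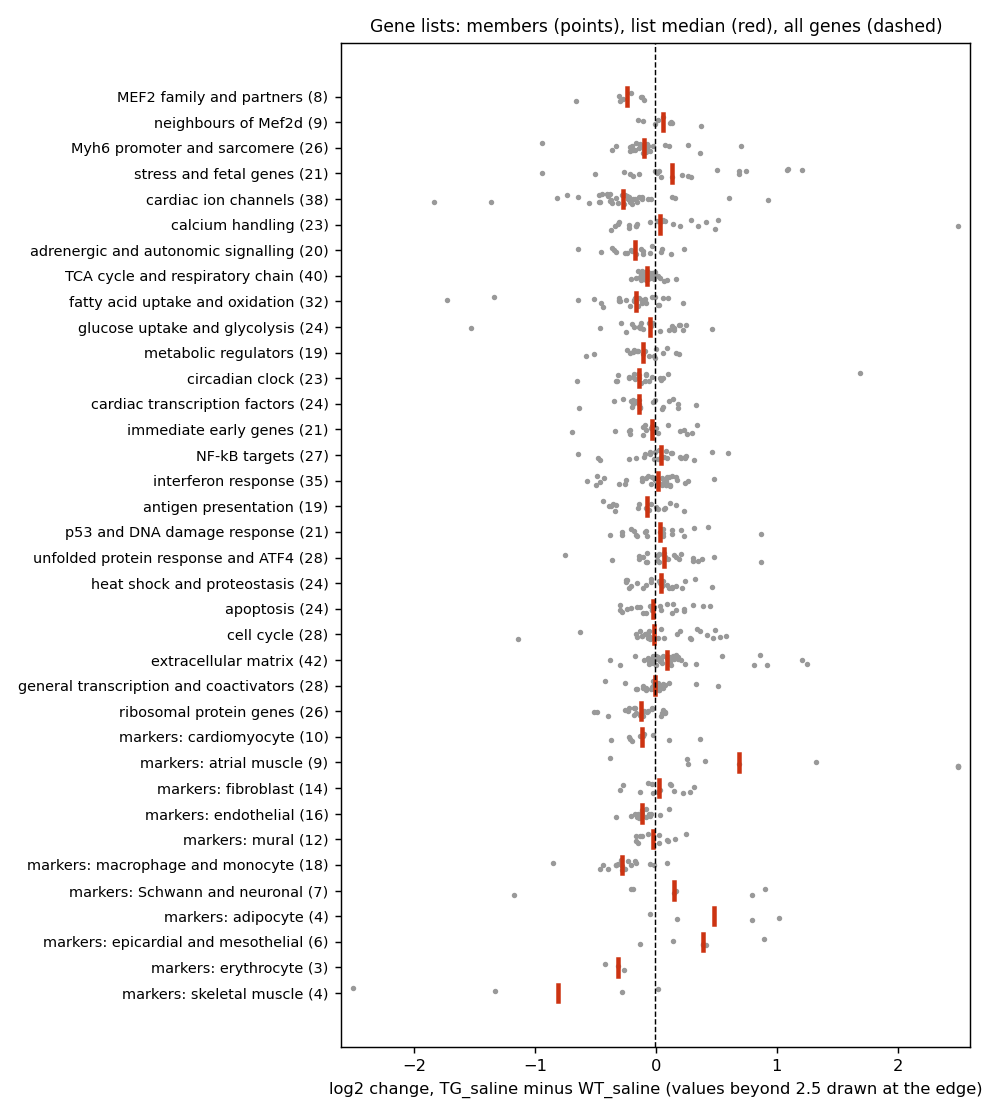
Log2 change (x axis, TG_saline minus WT_saline) of the tested members of 36 gene lists, with the number of tested members in brackets, a point per member, a red bar at the list median and a dashed line at the median of all tested genes. Most list medians lie between -0.3 and 0.2, with atrial muscle markers at 0.69 and skeletal muscle markers at -0.81; values beyond 2.5 in either direction are drawn at the edge.

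Markers of the cell types in the ventricle were read in the same way, since in bulk tissue fewer cells of a type and less RNA per cell cannot be told apart. The 10 cardiomyocyte markers had a median of -0.12, and 0.01 with quantile normalization, with a summed normalized count of 2133615 to 2372112 in WT_saline and of 1886568 to 2070934 in TG_saline. Of 18 macrophage and monocyte markers 17 were negative, with a median of -0.28, 0 without overlap, 0 with an unadjusted limma p under 0.05 and 0 called by limma, edgeR or DESeq2, and their sums ran from 5030 to 6632 and from 4384 to 5577. The 14 fibroblast markers had a median of 0.02, with 8 positive and 6 negative, from Col1a1 at a log2 change of -0.30 to Pcolce at 0.32. The extracellular matrix genes had a median of 0.10 over 42, and -0.03 with the Myl7 term, and among them Ltbp2 stood at 31.3 ± 15.2 and 72.3 ± 21.9 (SD, n = 3 each, log2 1.25). Of the 42, 5 were higher and 0 lower without overlap, beside 8.69% and 7.85% of all genes, and 4 had an unadjusted limma p under 0.05. Limma called 0 of them. DESeq2 called Ltbp2 and Thbs1 higher, and edgeR called neither. The 16 endothelial and 12 mural markers had medians of -0.11 and -0.02. Few markers were tested for adipocytes (4, median 0.48), epicardium (6, median 0.39), erythrocytes (3, median -0.31), skeletal muscle (4, median -0.81) and lymphocytes with neutrophils (2, median -0.20), and limma, edgeR and DESeq2 called 0 of them, with 1, the skeletal muscle calcium channel gene Cacna1s (log2 -0.28), at an unadjusted limma p under 0.05.

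The 9 tested atrial markers had a median of 0.69, with 8 positive, 1 negative and 0 at an unadjusted limma p under 0.05. With the Myl7 term the median was 0.07. Myl7 is itself a member of this list, so that fit could not test the change of the list. The sums of the list ran from 14092 to 14370 in WT_saline and from 16365 to 19833 in TG_saline. Among the 6 saline libraries, Myl7, Myl4 and Sln were high in TG_saline 1 and TG_saline 3 alone. In the vector libraries Myl7 stood at 2042 in WT_AAV 1, 1693 in WT_AAV 3 and 1505 in TG_AAV 1, and at 19.1 or less in the others. Clu and Pam were higher in all 3 TG_saline libraries, at 3328 ± 284 and 3990 ± 297 for Clu and at 7804 ± 566 and 9320 ± 654 for Pam (SD, n = 3 each). Bmp10 was below the filter. Neuronal and Schwann cell markers were few and low, with a median of 0.15 over 7, of which 4 were positive and 3 negative. Uchl1, a ubiquitin hydrolase of neurons, stood at 71.1, 48.1 and 65.1 against 106, 116 and 96.7 (log2 0.80, SE 0.15, limma adjusted p = 0.0540), was called by edgeR and DESeq2, and had a log2 change of 1.81 in the vector hearts. Ddc, which makes dopamine from its precursor, lay the other way at 105 ± 36.5 and 46.5 ± 15.2 (SD, n = 3 each, log2 -1.17, limma adjusted p = 0.186), without overlap, and was called lower by DESeq2. The part of atrial tissue in the counts above was not tested beyond the Myl7 term.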

How the data were processed

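The 12 ventricle libraries fall into 4 groups of 3, read from the sample titles. The authors deposited normalized counts, a signal unit: the reads of each gene symbol over a library's size factor. Per the submitters' processing notes the tools were Bowtie2 2.0 and DESeq2 with build mm9; the role of each, the counter, the annotation and the strand setting are not stated there. Each column's positive values were whole multiples of a step, and 100% lay within 0.01 of a whole read, so reads were recovered. A spreadsheet had turned 27 symbols into dates; 21 were tested and none is named.

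Values were tested as log2(normalized count + 1), which understates the change of low genes, with limma 3.58.1 (R 4.3.3), a trend of variance on the mean and the 4 group means in a single fit of 12 libraries. Genes with a mean of 10 or more over the 6 saline libraries entered. Tests were two-sided with Benjamini-Hochberg adjustment over 13005 genes and a threshold of 0.05. The fit was tested on simulated data. Mef2d, Myh6 and Rela also had an exact permutation test. Size factors of this kind would hide a change shared by most genes.

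Named genes are those called whose groups do not overlap, up to 12 per direction, filled up to 6 by p, the first 4 members of a list by p, and Mef2d, Myh6 and Rela; 1 gene so picked is not reported here. Relatives of called genes were chosen after the calls were known and are given as values only. The groups, lists and members were chosen with earlier results of these data known. The lists numbered 38, and sex-linked genes are read for the sexes only.

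The alternatives tried were a robust variance, other pseudocounts, other filters, other scalings, a replicate block, terms for Xist, Myl7 and Myh2, a fit of the 6 libraries alone, omission of each library, and edgeR 4.0.16 and DESeq2 1.42.0 on recovered reads. The Myl7 and Myh2 terms were added after seeing the data. Residuals of libraries with the same replicate number correlated at 0.16, 0.07 and -0.07 for numbers 1, 2 and 3, so the numbers were not taken as pairs.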

Additional observations from a re-analysis of the deposited data

Results flagged for a closer look

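The effect of the transgene on Mef2d differed between vector and saline hearts. The log2 difference between the pairs was 1.20 (SE 0.15, limma adjusted p = 0.00161), with a change of 0.93 from WT_AAV to TG_AAV and of -0.27 from WT_saline to TG_saline. Among the genes picked by call, by p in a direction or by name, Mef2d was the only one whose difference passed in that fit. Mef2d was itself picked by name, and members of the gene lists were not counted here. All 3 TG_AAV values lay above those of WT_AAV, and all 3 TG_saline values lay below those of WT_saline. TG_AAV is the group that holds both the activator and the vector named with Mef2d. Groups of 3 libraries were not searched for single outlying values.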

How the results depend on the processing

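The counts of called genes depended on the processing far more than the values did. For 11 higher and 2 lower genes in the reported fit, there were 2 and 1 with only the 6 libraries compared, 25 and 13 with a robust variance, 24 and 11 with edgeR, 111 and 110 with DESeq2, 3 and 0 with the Myl7 term, and 2 and 0 with the Myh2 term. In the fits with these terms 1234 and 1277 genes had an unadjusted limma p under 0.05. Without a filter there were 8 and 1, with quantile normalization 14 and 4, and with the Xist term 14 and 6. Leaving out single libraries gave 0 to 30 higher and 0 to 13 lower genes. The causes were not tested. The replicate numbers were not taken as pairs in the reported fit. A replicate block gave 19 higher and 13 lower genes, with 12 of the 13 called genes kept and Hyal1 lost.

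The 13 called genes were called in the vector hearts in every alternative with a value, but for a filter at a mean of 50, which removed Fzd9 and Prkcz and left 11; a fit of the 6 libraries gives none. The difference of the transgene effect between vector and saline hearts was counted without the list members. It was called for 1 of the remaining picked genes, Mef2d. It was called for 2 with the filter over 12 libraries, quantile normalization, TMM scaling, the replicate block or edgeR, and for 3 with DESeq2. Omission of single libraries gave 1 to 2. Mef2d in TG_saline against WT_saline lay between -0.37 and -0.16 and was never called. With 3 libraries a group and 10233281 to 11838776 reads a library, genes under a mean of 10 were not tested.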
